A study of Mus musculus with 9 samples.

Results

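The CCN matricellular protein family has 6 genes in the mouse, Ccn1 to Ccn6, and their expression was examined in spermatids, the haploid germ cells that mature into sperm, of 3 genotypes. Every probe that the platform annotation gives to 1 of these symbols was taken, which found 10 of 45279 probes. They cover 5 genes, with 3 probes for Ccn1, 2 each for Ccn2, Ccn3 and Ccn4, and 1 for Ccn5, while Ccn6 has none in this annotation. The members were selected on measured values, the rises of Ccn2 and Ccn5 in the samples labelled Wip1-/- Atm+/- being among the largest against wild type, so that comparison describes the members and no test of them is given. The wild type spermatids carry the label Wip1+/+. The second group is labelled Wip1-/-, a label that gives the loss of Wip1, the Ppm1d product, a phosphatase that counters the DNA damage kinase ATM. The third group is labelled Wip1-/- Atm+/-, a label that gives the Wip1 loss of the second group and the loss of 1 allele of Atm besides. Each group was measured on 3 bead arrays, for 9 arrays together. The sources used here give no age or strain of the mice and no method of isolating the spermatids. Whether the 3 arrays of a group stand for 3 mice is not in the labels either, so p-values reflect the spread among arrays alone, and that spread may be technical.

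CCN proteins are secreted into the extracellular matrix, where they signal rather than build structure. They bind integrins, heparan sulfate proteoglycans and growth factors, and so adjust how cells respond to their surroundings. Ccn1 and Ccn2 are textbook targets of YAP/TAZ with TEAD factors, of serum response factor and, for Ccn2, of TGF-beta, and they are typically made by fibroblasts, smooth muscle and endothelium rather than by germ cells.

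Each array detected 37.9% to 42.0% of its 43582 probes, at a detection p-value under 0.05, and the median scanner intensity ran from 100.5 to 121.8. Levels are given below as log2 of background-corrected, quantile-normalized intensity, and differences are on that scale. The test was made on 10556 genes with limma, and a gene is called where its Benjamini-Hochberg adjusted p is under 0.05. Ppm1d, read by ILMN_3133522, stood at 9.35 ± 0.18, 8.70 ± 0.15 and 9.46 ± 0.07 in wild type, Wip1-/- and the samples labelled Wip1-/- Atm+/- (SD, n = 3 each). It was 0.66 lower in Wip1-/- (limma adjusted p = 0.00511) but still detected there on 3 of 3 arrays. Its level in the samples labelled Wip1-/- Atm+/- does not show the loss that the label gives, and these arrays are therefore named by their label throughout. Another Ppm1d probe, ILMN_1226504, ran the other way, with 6.02 and detection on 3 of 3 arrays in Wip1-/- but 4.79 and 4.92 and detection on 0 arrays in wild type and the samples labelled Wip1-/- Atm+/-. The dim ILMN_1237129 stood at 5.58, 5.47 and 5.23 in wild type, Wip1-/- and the samples labelled Wip1-/- Atm+/-. The detected Ppm1d probes thus show no full loss of the transcript in Wip1-/- either. Atm, read by its brightest probe ILMN_2492491, stood at 7.09, 7.89 and 6.37 in the order of genotypes above, whereas ILMN_1258206, also detected on all 9 arrays, stood at 6.24, 6.87 and 7.27, and the dimmer ILMN_2783896 at 5.46, 5.37 and 5.86. The Atm probes thus give no common direction for the samples labelled Wip1-/- Atm+/-. The sources used here do not place these probes relative to the deleted parts of the genes.

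Ccn2, once called connective tissue growth factor (Ctgf) and known as a mediator of fibrosis, was clearly detected on all 9 arrays and stood at a different level in each genotype. Its probe ILMN_1238215 had scanner intensities of 724, 599 and 785 in wild type. The 3 Wip1-/- arrays gave 1586, 1550.1 and 1410.2. The samples labelled Wip1-/- Atm+/- gave 5677, 5020 and 4851. Every Wip1-/- array was thus above every wild type array, and every array labelled Wip1-/- Atm+/- above both groups. After normalization the mean log2 level came to 9.27 ± 0.16 for wild type, 10.32 ± 0.01 for Wip1-/- and 12.47 ± 0.03 for the samples labelled Wip1-/- Atm+/- (SD, n = 3 each).

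In Wip1-/- against wild type, Ccn2 rose by 1.05 on the log2 scale (SE 0.11, 95% confidence interval 0.80 to 1.29, limma adjusted p = 0.000225). This was rank 96 from the top among the 10556 genes. The comparison shares its wild type arrays with the one that chose the family. Ccn2 in the samples labelled Wip1-/- Atm+/- was 3.20 above wild type (SE 0.11), rank 9 from the top, and 2.15 above Wip1-/- (SE 0.11). These last values are a description, since the same arrays picked the gene.

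A second Ccn2 probe, ILMN_2909150, has blank cells in the scanner table and was read from the authors' processed intensities alone. It gave 1162, 1259 and 1307 in wild type. Wip1-/- gave 2670, 2419 and 2751. The samples labelled Wip1-/- Atm+/- gave 7808, 7860 and 8016. The order of the genotypes was the same as for the first probe, with no overlap between groups. On log2 of these intensities the probe was 1.07 above wild type in Wip1-/- (SE 0.09) and 2.67 above it in the samples labelled Wip1-/- Atm+/- (SE 0.09), where ILMN_1238215 in the same table gave 0.89 and 2.81. No detection p-value exists for ILMN_2909150, but on every array 100% of the probes at or above its intensity were detected.

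Ccn4, a secreted protein first described as induced by WNT signalling (Wisp1), rose in Wip1-/- and was higher again in the samples labelled Wip1-/- Atm+/-, from a wild type level at the edge of detection. Its probe ILMN_2492264 had scanner intensities of 132, 117 and 125 in wild type, with detection on 2 of the 3 arrays. Wip1-/- gave 197, 184 and 156. The samples labelled Wip1-/- Atm+/- gave 327, 241 and 262. The 3 groups did not overlap. The log2 level was 5.64 ± 0.13, 6.40 ± 0.14 and 7.80 ± 0.17 in the order of genotypes above (SD, n = 3 each).

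Against wild type, Ccn4 rose by 0.76 in Wip1-/- (SE 0.13, 95% confidence interval 0.47 to 1.04, limma adjusted p = 0.00277). It was 2.16 above wild type in the samples labelled Wip1-/- Atm+/- (SE 0.13). Between the samples labelled Wip1-/- Atm+/- and Wip1-/- it rose by 1.41 (SE 0.13, limma adjusted p = 1.45e-05), where 16.7% of all genes tested rose. The size depends on the background step because the probe is dim. Without background correction the difference of 2.16 became 1.23, and the rises of 0.76 and 1.41 became 0.35 and 0.89. The other Ccn4 probe, ILMN_2453775, was detected on 0 of 9 arrays, with scanner intensities of 86.1 to 115.9 and mean log2 levels of 4.79, 4.84 and 4.89. The rise of Ccn4 thus rests on 1 of its 2 probes, and why they differ was not tested.

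Ccn5, also known as Wisp2, differs from its relatives in lacking the carboxy-terminal cysteine-knot module, and in smooth muscle it is known as a growth inhibitor. It was near background in wild type and Wip1-/- and well above it in the samples labelled Wip1-/- Atm+/-. Its probe ILMN_2486906 had scanner intensities of 124.1, 107.7 and 123.8 in wild type, with detection on 2 of the 3 arrays. Wip1-/- gave 170.0, 136.9 and 134.6. The samples labelled Wip1-/- Atm+/- gave 501, 423 and 443. Wild type and Wip1-/- overlapped after normalization, because replicate 2 of Wip1-/- fell to 5.46 while the highest wild type array stood at 5.57. The samples labelled Wip1-/- Atm+/- lay between 8.70 and 8.80, far from both.

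The log2 level of Ccn5 came to 5.46 ± 0.17 for wild type, 5.84 ± 0.37 for Wip1-/- and 8.76 ± 0.05 for the samples labelled Wip1-/- Atm+/- (SD, n = 3 each). The Wip1-/- difference of 0.38 did not pass the test (SE 0.17, 95% confidence interval 0.01 to 0.75, limma adjusted p = 0.142). Without replicate 2 of Wip1-/- it was 0.56 and passed (limma adjusted p = 0.0285). In the samples labelled Wip1-/- Atm+/-, Ccn5 was 3.30 above wild type (SE 0.17), rank 3 from the top, and 2.92 above Wip1-/- (SE 0.17). Without background correction these became 2.07 and 1.91, and the Wip1-/- difference 0.16.

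**Figure D1:**
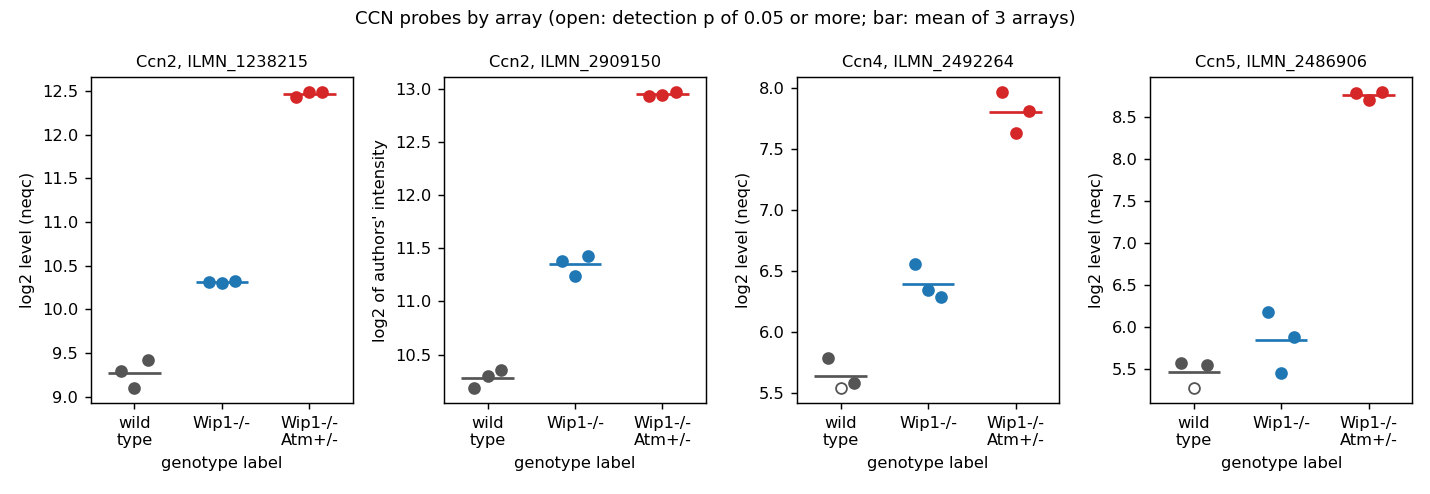
Log2 level of the 4 CCN probes that rise above background, by genotype label (x axis), with 1 point per array, a bar at the mean of 3 arrays and open points where the detection p-value is 0.05 or more. The y axes differ in range, and the second panel shows log2 of the authors' processed intensity, for which no detection p-value exists. Ccn2 and Ccn4 step up at both genotypes, whereas Ccn5 overlaps between wild type and Wip1-/- and stands at 8.70 to 8.80 in the samples labelled Wip1-/- Atm+/-.

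Of the 3 CCN genes tested, 2 (Ccn2 and Ccn4) rose in Wip1-/- and 0 fell, where 11.5% of all genes tested rose and 8.36% fell. The same 2 did not overlap with wild type, all Wip1-/- arrays being higher, against 22.5% of all genes. Both counts use the wild type arrays on which Ccn2 and Ccn5 were chosen, so they are not independent of that choice. In all, 2091 genes (19.8%) were called in Wip1-/- against wild type, and the number fell to 1207 without replicate 1 and 1241 without replicate 3 of Wip1-/-. In the samples labelled Wip1-/- Atm+/- all 3 stood above every wild type array, as did 20.3% of all genes, and above every Wip1-/- array, as did 22.8%. For the 3 genes this was partly fixed by how the family was chosen. Ccn4 and Ccn5 were each detected on 8 of 9 arrays and passed the minimum of 3 arrays, a filter that arrays of 1 high genotype alone can satisfy.

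Ccn1 and Ccn3, the other measured members, stayed at background. Ccn1, an immediate early gene that promotes cell adhesion and is known as Cyr61, is read by 3 probes. ILMN_1235571 and ILMN_2794645 were detected on 0 of 9 arrays, with scanner intensities of 75.9 to 113.5 and 89.2 to 110.7. ILMN_2710253 was detected only on replicates 2 and 3 of Wip1-/-, at 143.3 and 116.2, while the other 7 arrays gave 101.6 to 115.4. Its mean log2 level was 5.24, 5.38 and 5.04 in the 3 genotypes, differences too close to the background for a fold to be given. Ccn3, known as Nov and linked to growth restraint, is read by ILMN_1231797 and ILMN_1259573. Both were detected on 0 of 9 arrays, with scanner intensities of 82.9 to 102.6 and 73.7 to 97.2. A change of Ccn1 or Ccn3 was therefore not detectable with these probes, which does not show that the transcripts are absent.

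**Figure D2:**
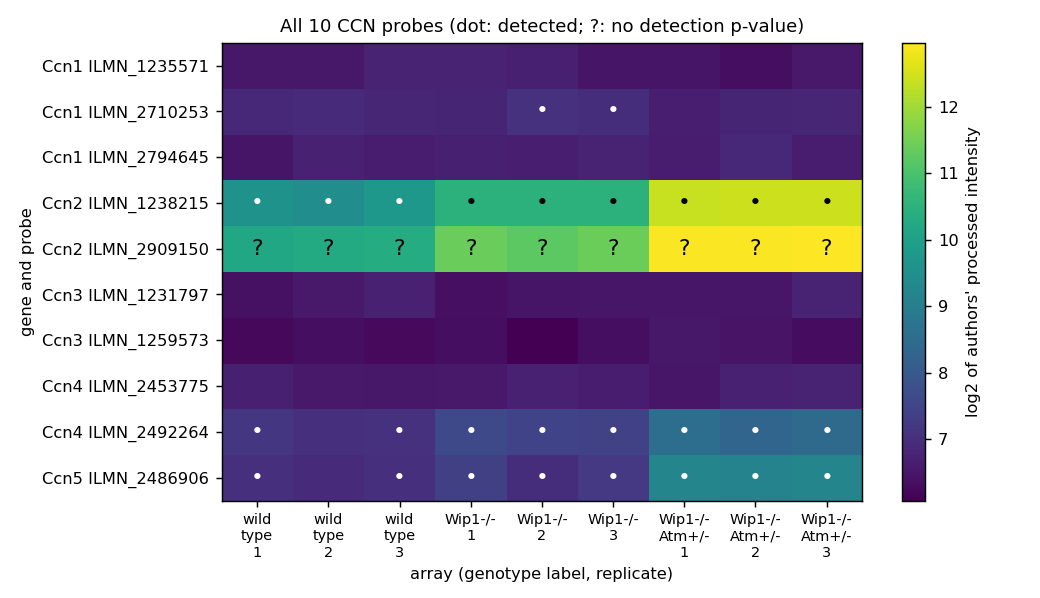
Log2 of the authors' processed intensity (colour) for all 10 CCN probes (rows) on the 9 arrays (columns), with a dot where the detection p-value is under 0.05 and a question mark where none exists. Both Ccn2 probes, ILMN_2492264 of Ccn4 and the Ccn5 probe brighten toward the samples labelled Wip1-/- Atm+/-, and the other 6 probes stay dark, with dots only for ILMN_2710253 on 2 Wip1-/- arrays.

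RefSeq's promoter table for assembly GRCm38.p6 matched 2 of the 6 members, Ccn1 and Ccn6, of which Ccn1 was measured. Its promoter is shown because Ccn1 is a textbook YAP/TAZ and TEAD target that stayed at background here while Ccn2, regulated by the same factors, rose. Its 300 bases around the annotated start lie at chr3:145649936-145650235 on the minus strand, and are shown with the TEAD core CATTCC and the TATA motif TATAAA in capitals.
Ccn1: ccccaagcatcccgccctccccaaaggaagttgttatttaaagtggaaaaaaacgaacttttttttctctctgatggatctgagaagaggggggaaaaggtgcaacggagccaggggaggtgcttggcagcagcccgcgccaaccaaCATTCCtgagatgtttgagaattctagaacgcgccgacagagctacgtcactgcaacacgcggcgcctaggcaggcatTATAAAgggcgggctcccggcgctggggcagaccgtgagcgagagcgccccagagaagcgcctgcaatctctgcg
Searched on both strands, the window holds 1 CATTCC, whose first base is at position -103 relative to the annotated start, and 1 TATAAA at -25. These letters are found in 14.7% and 13.6% of all 32851 promoter windows of the table. The AP-1 motif TGANTCA and the CArG box were each found 0 times in it, and occur in 7.81% and 1.63% of the windows. The TEAD and TATA matches do not overlap. A match describes letters only, and Ccn1 stayed at background in 7 of 9 arrays with its brightest probe as described above.

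The 6 genes are spread over 4 chromosomes, Ccn1 on chromosome 3, Ccn2 and Ccn6 on 10, Ccn3 and Ccn4 on 15 and Ccn5 on 2, and thus not on those of Ppm1d (11) or Atm (9). Ccn3 and Ccn4 share a chromosome, yet one stayed undetected where the other rose.

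The genes whose pattern lay nearest to each tested member were found by the root mean square difference over the 9 arrays, after each gene's wild type mean was set to 0. This likeness uses the arrays that chose the family and is a description. Nearest to Ccn2 was Myh11, the heavy chain of smooth muscle myosin, at 0.083, with differences from wild type of 1.11 in Wip1-/- and 3.17 in the samples labelled Wip1-/- Atm+/-. Col6a1, a collagen VI chain, followed at 0.098, with 1.11 and 3.13. Lamc3, a laminin gamma chain, was at 0.146, Sct, the hormone secretin, at 0.158 and Rasl12, a Ras-like small GTPase, at 0.164.

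Nearest to Ccn4 were Ptgis, the prostacyclin synthase of vessel walls, at 0.128, Mmd2 at 0.129 and Pdlim7, a PDZ and LIM domain protein of the actin cytoskeleton, at 0.131. Their differences from wild type in the samples labelled Wip1-/- Atm+/- were 2.14, 2.20 and 2.19. Arid1b, a chromatin remodelling subunit, was at 0.137, but its other detected probe differed in direction, with -0.91 in Wip1-/- and -0.49 in the samples labelled Wip1-/- Atm+/-. Srpx2, a secreted sushi repeat protein that was undetected in wild type, was at 0.141.

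Ccn5 had no neighbour as near, but the spread of its dim probe among arrays enters the distance (SD 0.17 in wild type and 0.37 in Wip1-/-). Gal3st2, a galactose sulfotransferase, came closest at 0.292. It was undetected in wild type and Wip1-/- and at least 6.92-fold above wild type in the samples labelled Wip1-/- Atm+/-, a bound taken against the lowest detected signal. Sct at 0.336, the proteoglycan Prelp at 0.369, Lamc3 at 0.384 and the integrin chain Itga9 at 0.386 followed, and their Wip1-/- differences of 0.60 to 0.92 were all above the 0.38 of Ccn5. The other detected probes of Lamc3 and Itga9 gave smaller differences, 0.37 and 0.09 in Wip1-/-, and 2.41 and 1.15 in the samples labelled Wip1-/- Atm+/-. Sct and Lamc3 are thus among the 5 nearest genes of both Ccn2 and Ccn5. Among the members themselves the distance was 0.429 between Ccn2 and Ccn5, 0.637 between Ccn2 and Ccn4, and 0.709 between Ccn4 and Ccn5.

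**Figure D3:**
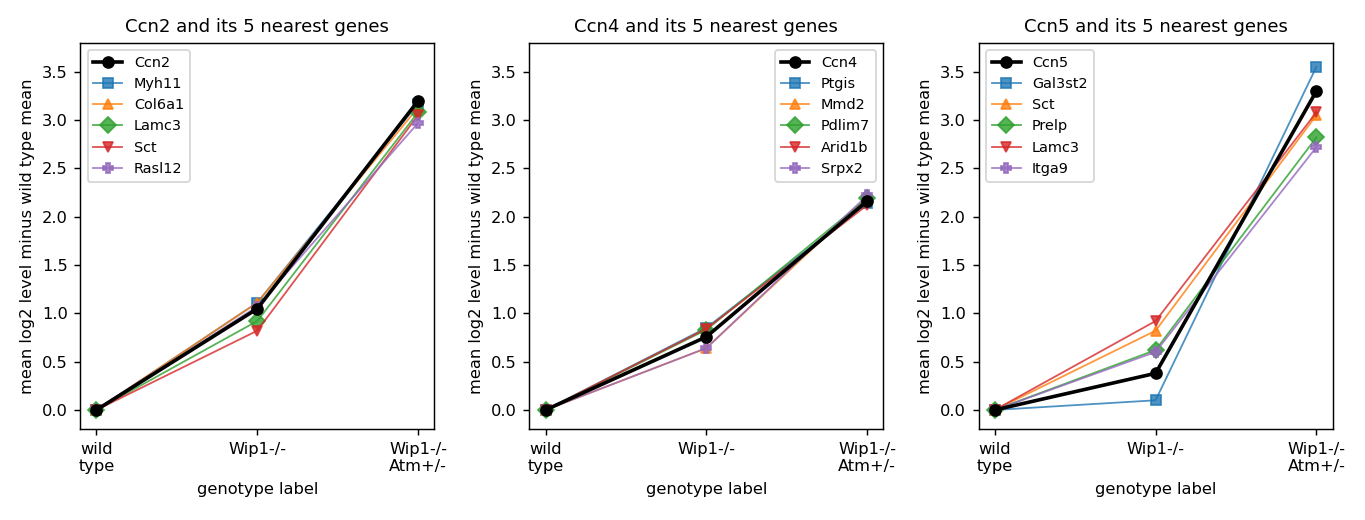
Mean log2 level minus the wild type mean (y axis) at each genotype label (x axis, n = 3 arrays each) for Ccn2, Ccn4 and Ccn5 (black) and the 5 genes nearest to each in root mean square difference over 9 arrays (coloured). The lines of Ccn2 and of Ccn4 are nearly covered by their neighbours, while Gal3st2, at 0.10 and 3.55, is the only one of the 5 shown that lies below Ccn5 in Wip1-/-.

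Receptors and co-receptors that bind CCN proteins were mostly below the detection filter. Of 15 listed, 5 were tested. In Wip1-/- 1 of the 5 rose and 0 fell, where 11.5% of all genes rose and 8.36% fell. The median of the 5 was 0.31 (0 with undetected groups set to their bound) against 0.04 over all genes. In the samples labelled Wip1-/- Atm+/- 3 rose against wild type and 0 fell, where 15.5% of all genes rose and 13.9% fell, and their median difference was 0.84 against -0.03 over all genes. With undetected groups set to their bound the median was 0.39. Fgfr2, a fibroblast growth factor receptor to which Ccn2 can bind, was undetected in wild type and at least 1.89-fold higher in Wip1-/- (limma adjusted p = 0.000225) and at least 5.25-fold higher in the samples labelled Wip1-/- Atm+/- (limma adjusted p = 4.17e-08). The heparan sulfate proteoglycan Sdc4 rose by 1.06 there (SE 0.19, limma adjusted p = 0.00154). The integrin chain Itgb5, undetected in wild type, was at least 1.31-fold higher (limma adjusted p = 0.000302). Its partner Itgav and the WNT co-receptor Lrp6 gave 0.24 and -0.04 and did not pass.

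Genes that switch CCN transcription on or off moved in both directions. Of 20 listed, 14 were tested. In Wip1-/- 4 rose and 2 fell, where 11.5% of all genes rose and 8.36% fell, with a median of 0.02, and only 3 were called when replicate 2 of wild type, or replicate 1 or replicate 3 of Wip1-/-, was left out. Against wild type, 4 rose and 3 fell in the samples labelled Wip1-/- Atm+/-, a split that turned to 3 and 4 under median scaling, with a median of 0.04 (-0.05 with bounds). Of all genes 15.5% rose and 13.9% fell. Smad2, called in Wip1-/-, was detected there alone. In the samples labelled Wip1-/- Atm+/- the largest change was a rise of Tead1, a TEAD factor, by 1.38 (SE 0.13, limma adjusted p = 1.05e-05). The TGF-beta receptor chain Tgfbr2 rose by 0.91 in the same samples (SE 0.18, limma adjusted p = 0.00331). Mrtfb, a coactivator of serum response factor, was undetected in these arrays and at least 1.23-fold lower (limma adjusted p = 0.00375). In Wip1-/- the Hippo kinase Lats2 fell by 1.01 (SE 0.19, limma adjusted p = 0.00470). Tgfbr1 rose by 0.64 in Wip1-/- (limma adjusted p = 0.00962) by its brightest probe, with 0.47 and -0.33 for its other probes. The probes of Srf, the serum response factor gene, gave -0.42 and 0.58 in the samples labelled Wip1-/- Atm+/-, so its direction is unsettled.

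Other targets of YAP/TAZ with TEAD gave 11 tested genes of 20, Lats2 and Tgfb2 being on the regulator list too. In Wip1-/- 3 rose and 1 fell, against 11.5% and 8.36% of all genes, with a median of 0.19 (0 with bounds). Against wild type, 5 rose and 1 fell in the samples labelled Wip1-/- Atm+/-, with a median of 0.42, against shares of 15.5% and 13.9% of all genes. Of the 5, Ccdc80 was detected in these samples alone. Axl, a receptor tyrosine kinase, rose by 0.93 in Wip1-/- (SE 0.12, limma adjusted p = 0.000559) and by 2.60 in the samples labelled Wip1-/- Atm+/- (SE 0.12, limma adjusted p = 3.94e-08). Nt5e, the ecto-nucleotidase CD73, rose by 0.95 and 2.41 (limma adjusted p = 0.00126 and 2.31e-07), with 0.30 and 1.68 for its other detected probe. Rbms3, an RNA-binding protein that was undetected in wild type, was at least 2.65-fold higher in the samples labelled Wip1-/- Atm+/- (limma adjusted p = 1.80e-07).

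Targets of TGF-beta other than CCN genes gave 10 tested genes of 16. In Wip1-/- 3 rose and 0 fell, against 11.5% and 8.36% of all genes, with a median of 0.29 (0.17 with bounds). Against wild type, 5 rose and 1 fell in the samples labelled Wip1-/- Atm+/-, with a median of 0.95 (0.55 with bounds), against shares of 15.5% and 13.9% of all genes. Of the 5, Col1a2 and Col3a1 were detected in these samples alone. Timp3, a metalloproteinase inhibitor, rose by 3.00 there (SE 0.15, limma adjusted p = 5.88e-08) by its brightest probe, but by its others the difference was 0.96 and -0.09. Acta2, smooth muscle actin, rose by 2.44 (SE 0.10, limma adjusted p = 2.71e-08) and Col1a1, a chain of type I collagen, by 2.33 (SE 0.15, limma adjusted p = 5.93e-07). Fn1, the matrix protein fibronectin, was 0.60 higher in Wip1-/- (limma adjusted p = 0.00928), while in the samples labelled Wip1-/- Atm+/- it was undetected and at least 1.07-fold below wild type (limma adjusted p = 0.00174). Acta2, Col1a1, Col1a2 and Col3a1 also stand in the marker lists below.

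Matricellular proteins of other families gave 6 tested genes of 16. In Wip1-/- 1 rose and 0 fell, against 11.5% and 8.36% of all genes, with a median of 0.12 (0.05 with bounds). Against wild type, 2 rose and 1 fell in the samples labelled Wip1-/- Atm+/-, with a median of 0.25, against shares of 15.5% and 13.9% of all genes. Sparc, a collagen-binding protein, rose by 0.79 in Wip1-/- (SE 0.14, limma adjusted p = 0.00322) and by 2.07 in the samples labelled Wip1-/- Atm+/- (SE 0.14, limma adjusted p = 6.82e-07). Its relative Sparcl1 was undetected in wild type and at least 2.04-fold higher in the samples labelled Wip1-/- Atm+/- (limma adjusted p = 0.00128). Tnc, tenascin C, fell there by 0.40 (SE 0.12, limma adjusted p = 0.0301), a call that was lost with cyclic loess normalization.

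Most tested markers of smooth muscle and fibroblasts were, like Ccn2, Ccn4 and Ccn5, highest in the samples labelled Wip1-/- Atm+/-. The part of these markers in the CCN differences was not tested. In RNA from a bulk sample, more cells of a type and more RNA per cell cannot be told apart. Of 10 markers of smooth muscle and peritubular myoid cells, the contractile cells around the seminiferous tubule, 8 were tested. In Wip1-/- 5 rose and 1 fell, where 11.5% of all genes rose and 8.36% fell. In the samples labelled Wip1-/- Atm+/- 7 rose against wild type and 0 fell, against 15.5% and 13.9% of all genes. The summed level of the 8, on the linear scale, was 13887 to 15651 for wild type, 17228 to 18085 for Wip1-/- and 35004 to 37035 for the samples labelled Wip1-/- Atm+/-. Cnn1 of this list was detected on 0 arrays. Myh11, Myl9 and Des rose the most in the samples labelled Wip1-/- Atm+/-, by 3.17, 2.76 and 2.57 (limma adjusted p = 9.52e-09, 2.71e-08 and 6.04e-06). Actg2 was the member that fell in Wip1-/-, by 0.40 (limma adjusted p = 0.0267). It gave 0.25 in the samples labelled Wip1-/- Atm+/- and did not pass (limma adjusted p = 0.113). A sum on the linear scale weighs bright members most, so it need not follow the members named. The list of other TGF-beta targets, which holds Acta2, summed to only 3797 to 4057 in wild type. Most of the smooth muscle sum in wild type thus came from members other than Acta2, and from which cells was not tested.

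Fibroblast and stroma markers, of which 8 of 10 were tested, gave 2 rises in Wip1-/- and 7 in the samples labelled Wip1-/- Atm+/- against wild type, with 0 falls in either. Of all genes 11.5% rose and 8.36% fell in the first comparison, and 15.5% rose and 13.9% fell in the second. Without replicate 1 of Wip1-/- Atm+/- the 7 became 4 of 6 tested. Col1a2 and Col3a1 passed the filter only through the samples labelled Wip1-/- Atm+/-, where they are high, and with bounds the median of 1.38 became 1.05. The summed level of the 8 tested markers was 905 to 1078 for wild type, 1569 to 1667 for Wip1-/- and 3563 to 3947 for the samples labelled Wip1-/- Atm+/-. Pdgfra, the growth factor receptor of mesenchymal cells, rose by 1.49 in Wip1-/- (SE 0.12, limma adjusted p = 6.0e-05) and by 3.08 in the samples labelled Wip1-/- Atm+/- (SE 0.12, limma adjusted p = 2.06e-08).

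Endothelial markers followed another order. Of 10, 7 were tested, and 7 rose in Wip1-/-, where 11.5% of all genes rose and 8.36% fell. The count became 4 of 5 tested without replicate 3 of Wip1-/-. The filter fixed part of this count, since Esam and Emcn were detected in Wip1-/- alone, and 6 of the 7 were undetected in at least 1 genotype of this comparison. With bounds their median difference fell from 1.05 to 0.57. Against wild type, 2 rose and 0 fell in the samples labelled Wip1-/- Atm+/-, where 15.5% of all genes rose and 13.9% fell. The summed level of the 7 tested markers was 231 to 254 for wild type, 619 to 632 for Wip1-/- and 296 to 385 for the samples labelled Wip1-/- Atm+/-, whereas Ccn2, Ccn4 and Ccn5 were highest in the last group. Kdr was detected on 0 arrays.

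Spermatid markers, which define the labelled cell type, were detected in all 3 genotypes. Of 12, 11 were tested, and their summed level was 256943 to 271573 for wild type, 244418 to 250176 for Wip1-/- and 262669 to 266634 for the samples labelled Wip1-/- Atm+/-. In Wip1-/- 0 rose and 3 fell, against 11.5% and 8.36% of all genes. In the other comparison with wild type, where the shares were 15.5% and 13.9%, 0 rose and 1 fell, which turned to 1 rise and 0 falls with cyclic loess normalization. The spermatid genes Tnp2, Hils1 and Tssk6 fell in Wip1-/- by 0.49, 0.47 and 0.46 (limma adjusted p = 0.00856, 0.00738 and 0.0169).

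Markers of 6 further cell types gave fewer tested genes. The counts in this paragraph are for the samples labelled Wip1-/- Atm+/- against wild type, where 15.5% of all genes rose and 13.9% fell. Of 6 erythroid markers 4 were tested and 4 rose in the samples labelled Wip1-/- Atm+/- against wild type, with a summed level of 333 to 378 for wild type, 579 to 639 for Wip1-/- and 2201 to 2514 for the samples labelled Wip1-/- Atm+/-. Of 12 Sertoli cell markers 6 were tested and 2 rose, with a summed level of 1444 to 1622, 1493 to 1666 and 2043 to 2256 in the same order, and Gata4, Amh and Fshr were detected on 0 arrays. Of 10 macrophage markers 7 were tested, 1 rose and 2 fell, and 1 was called without replicate 2 or without replicate 3 of Wip1-/- Atm+/-. With cyclic loess, with offset 50 and with the authors' values 2 rose and 0 fell, and without background correction or with only the 2 genotypes compared 1 rose and 0 fell, so the direction of the macrophage list is unsettled. Their sum was 627 to 772, 587 to 593 and 770 to 908, and Ptprc was detected on 0 arrays. Of 10 spermatocyte markers 7 were tested and 3 fell, which became 1 without replicate 1 of wild type, 0 without replicate 2 of wild type, and 1 without replicate 1 or without replicate 3 of Wip1-/- Atm+/- or with only the 2 genotypes compared. Their sum was 13173 to 14310, 15455 to 16140 and 10963 to 12041, and Sycp3, Hormad1 and Dmc1 were detected on 0 arrays. Of 8 Leydig cell markers 1 was tested, Insl3, and of 9 epididymal markers 1, Lcn8. Both were within the spread, at 0.00 and -0.19 (limma adjusted p = 0.986 and 0.374), with sums of 155 to 227, 145 to 158 and 181 to 205 for the first and 42 to 59, 34 to 42 and 38 to 47 for the second. Cyp17a1, Star, Hsd3b1, Hsd3b6, Hsd17b3 and Nr5a1 of the Leydig list, and Lcn5, Rnase10, Adam7, Gpx5 and Spint4 of the epididymal list, were detected on 0 arrays.

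Between the samples labelled Wip1-/- Atm+/- and Wip1-/-, 16.7% of all genes rose and 18.0% fell. Of the tested members, 3 of 5 receptors, 6 of 11 other YAP/TAZ targets, 5 of 10 other TGF-beta targets and 2 of 6 other matricellular genes rose, and 0, 0, 1 and 1 fell. The regulators gave 2 rises, Tead1 by 1.13 and Lats2 by 0.83 (limma adjusted p = 6.39e-05 and 0.00640), and 1 fall of 14, which became 3 falls under median scaling. Smooth muscle markers rose in 8 of 8. Fibroblast markers rose in 7 of 8, Col1a2 and Col3a1 again included, or in 4 of 6 tested without replicate 1 or without replicate 3 of Wip1-/- Atm+/-. Endothelial markers fell in 5 of 7, Esam and Emcn among them, or in 3, 2 and 2 of 5 tested without replicate 1, 2 or 3 of Wip1-/-. Spermatid markers gave 4 rises and 1 fall of 11, or 2 and 1 without replicate 1 or without replicate 3 of Wip1-/- Atm+/-.

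**Figure D4:**
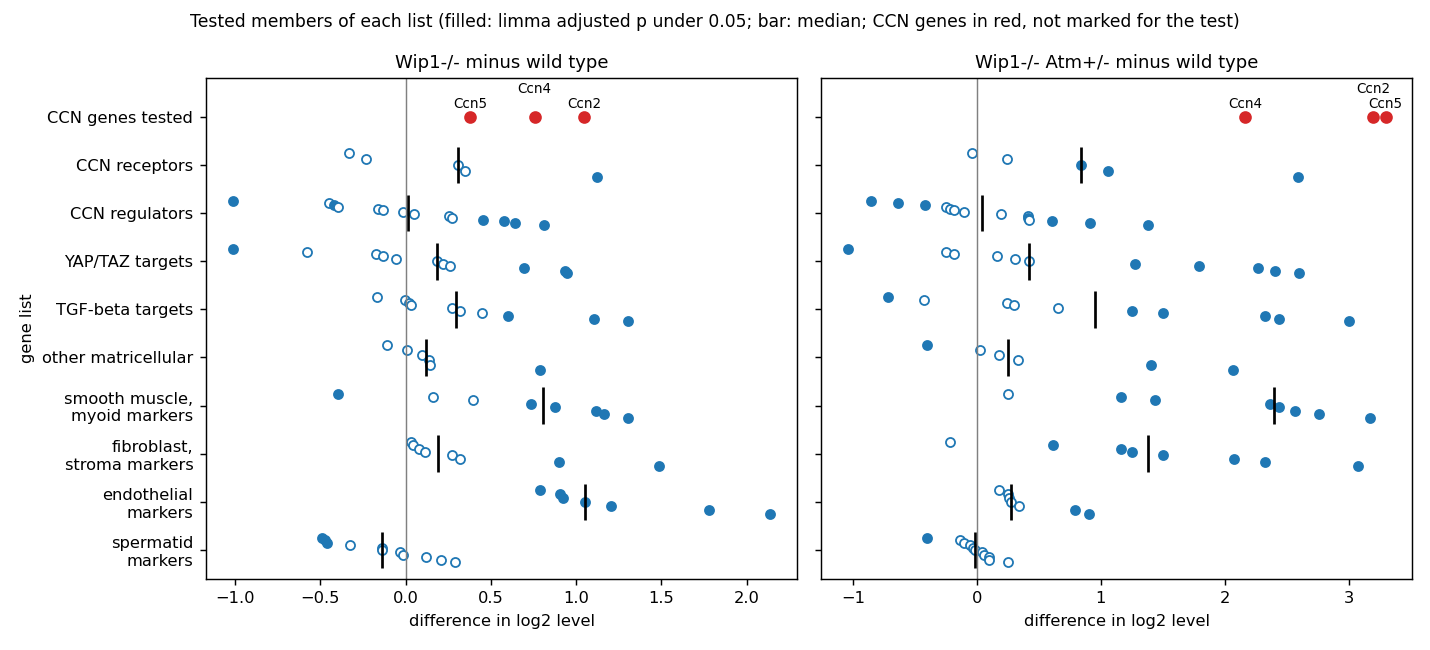
Difference in log2 level (x axis) of Wip1-/- (left) and of the samples labelled Wip1-/- Atm+/- (right) from wild type for the tested members of 9 gene lists (rows), with filled points for genes called, open points for the rest and a bar at the median. The 3 tested CCN genes are in red without a mark for the test. In the right panel Ccn2 and Ccn5, at 3.20 and 3.30, were selected for this difference. The medians of the smooth muscle and fibroblast lists are 2.40 and 1.38.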

How the data were processed

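Gene expression was measured on 9 bead arrays, 3 each of wild type, Wip1-/- and Wip1-/- Atm+/- spermatids, grouped by the genotype label. The deposited scanner table gives each probe an intensity before normalization with its detection p-value, per the file headers. A further table by the authors gives processed intensities on a linear scale, whose 9 columns share a distribution by their values. Its 1697 probes without scanner values were read from that table alone. Deposited detection p-values above 1 (895 cells, decimal point missing) were read as thousandths, which left each at 0.125 or more. Per the labels' protocols, RNA was extracted with Trizol, and the sources used here do not name the scanner software.

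The neqc function (limma 3.58.1, R 4.3.3) was applied (background from the detection p-values, offset 16, quantile), giving log2 values computed here from the deposited intensities. The offset shrinks differences of dim probes. Probes detected at p under 0.05 on at least 3 arrays were kept (18867), the brightest probe was tested for each of 10556 genes, and lmFit and eBayes estimated 1 mean for each genotype over the 9 arrays (6 residual and 5.09 prior degrees of freedom), two-sided, with Benjamini-Hochberg adjustment. The fit was tested on simulated data. A bound sets the brighter mean against the higher of the lowest detected signal and the dim probe's own level. The number of arrays limits the precision. Same-numbered arrays did not deviate together throughout, with correlations of -0.298 to 0.272, so no pairing was used. Between Wip1-/- and the samples labelled Wip1-/- Atm+/- they gave 0.272, 0.159 and 0.046, against -0.229 to 0.063 for arrays with different numbers. Columns of sample values left unused numbered 0.

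The members, lists and naming rule were chosen with earlier results of these data known. The rule named all CCN probes, the 5 genes nearest to each tested CCN gene that was called (clone identifiers left out), Ppm1d and Atm, and up to 3 called members of each list with the largest change per comparison. Not every gene it allows is printed. Other genes in the text, such as Itgav, Lrp6 and marker genes detected on 0 arrays, were picked after their values were seen.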

Additional observations from a re-analysis of the deposited data

How the results depend on the processing

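No CCN difference reversed under any alternative run (background correction, normalization, offset, the authors' processed values, filters on dim probes, probe choice, 2 genotypes only, a replicate block, and leaving out each array). The rise of Ccn2 in Wip1-/- ranged from 0.89 to 1.10 on the log2 scale over 10 alternatives and from 0.96 to 1.13 with 1 array left out, and that of Ccn4 from 0.35 to 0.91 and from 0.67 to 0.83, both past the threshold wherever they were tested. Ccn5 ranged from 0.16 to 0.49, never past it (limma adjusted p = 0.0668 to 0.236), and from 0.20 to 0.56 with 1 array left out, past it only without replicate 2 of Wip1-/- (limma adjusted p = 0.0285), so 2 to 3 CCN genes were called. With probes detected on all 9 arrays only Ccn2 was left to test, and 1 CCN gene was called, since Ccn4 and Ccn5 had an undetected wild type array. Genes called in Wip1-/- numbered 1207 to 2048 with 1 array left out. The same filter left 0 receptors and 0 endothelial markers to test. Median scaling moved the median of all genes to 0.105 in Wip1-/- and to -0.154 in the samples labelled Wip1-/- Atm+/- against wild type, and the share of higher among called genes from 57.8% and 52.7% to 71.7% and 35.0%. It was 62.5% for the second with cyclic loess. Between the samples labelled Wip1-/- Atm+/- and Wip1-/- that share moved from 48.1% to 25.8% with median scaling. With the replicate number as a block, which the samples only share as a number, 1842 genes were called in Wip1-/- and the CCN calls did not change. Ccn4 and Ccn5 in wild type lie near background, which limits the size of their differences.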

Other observations

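The nearest tested genes on either side in the RefSeq gene order differed from each other beside Ccn4 and Ccn5. Those beside Ccn2 both rose in the samples labelled Wip1-/- Atm+/- against wild type, where 15.5% of all genes rose and 13.9% fell. In Wip1-/- these shares were 11.5% and 8.36%. Genes that were not tested were passed over, so others can lie between. Ndrg1, a stress-responsive gene beside Ccn4, rose against wild type, by 0.62 in Wip1-/- and by 1.61 in the samples labelled Wip1-/- Atm+/- (limma adjusted p = 0.0178 and 1.43e-05), while Tg, the thyroglobulin gene on the other side, gave -0.10 and 0.03 (limma adjusted p = 0.696 and 0.901). Beside Ccn2, the syntaxin gene Stx7 and the Mediator subunit gene Med23 gave 0.28 and -0.22 in Wip1-/- (limma adjusted p = 0.140 and 0.250), and rose by 1.01 and 0.65 in the samples labelled Wip1-/- Atm+/- (limma adjusted p = 0.000109 and 0.00260). Beside Ccn5, the 14-3-3 gene Ywhab gave 0.47 in Wip1-/- (limma adjusted p = 0.0576) and rose by 1.16 in the samples labelled Wip1-/- Atm+/- (limma adjusted p = 0.000205). Pkig, on its other side, gave -0.23 and 0.02 (limma adjusted p = 0.390 and 0.939). The neighbours were looked up after the CCN values were known, and no test of neighbourhood was made.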
